A study of Mus musculus with 16 samples.

Results

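The muscle kelch proteins and the thin filament end proteins were followed as 10 genes chosen by symbol: Klhl40, Klhl41, Klhl31, Klhl30, Klhl33, Klhl34 and Klhl38 of the BTB-kelch family, the leiomodins Lmod2 and Lmod3, and the tropomodulin Tmod4. They are 10 of 41388 genes in the count table, and each symbol matched 1 row. The choice was made with earlier results of these data known. Counts of the 10 set beside the share of all genes are therefore descriptions and no test of the set. RNA was sequenced from quadriceps of C57BL/6 mice at postnatal day 36, in 4 groups of 4 libraries. The groups were wild type (WT), wild type on tamoxifen (WT + TAM), Mtm1 knockout (Mtm1 KO) and Mtm1 knockout on tamoxifen (Mtm1 KO + TAM). Tamoxifen citrate, an estrogen receptor modulator, was given in the diet at 40 mg/kg per day from day 21, and the knockout, labelled mtm1 -/-, lacks exon 4 of Mtm1 in all tissues. Loss of Mtm1, which encodes the phosphoinositide phosphatase myotubularin, causes X-linked myotubular myopathy. The knockout is a germline deletion, so muscle that developed without myotubularin was compared with muscle that had it.

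Kelch proteins of the BTB family bring substrates to the ubiquitin ligase scaffold cullin-3, and several of them are made mainly in striated muscle. KLHL40 and KLHL41 have sarcomere proteins as partners, including nebulin and leiomodin-3. Loss of either gene in humans causes nemaline myopathy, a disease with rods of thin filament and Z disc protein in the fiber. Leiomodins start and lengthen actin filaments at their pointed ends, and tropomodulins cap the same ends, so that together they set thin filament length. Leiomodin-3 is the main leiomodin of skeletal muscle and is also a nemaline myopathy gene, leiomodin-2 is best known from heart, and tropomodulin-4 is a form of the cap in skeletal muscle.

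Total counts lay between 25116179 and 29847222 per library. Mtm1 itself had 341 to 369 counts in WT replicates 2 to 4, 282 to 459 in WT + TAM, 63 to 76 in Mtm1 KO replicates 9 to 11 and 53 to 97 in Mtm1 KO + TAM; these gene counts include exons that the deletion leaves in place. The library labelled WT replicate 1 had 74 Mtm1 counts, in the range of the knockouts, which goes against its label. This library and Mtm1 KO replicate 12 were not among the study's own 14 libraries, and the comparisons here use those 14, with the effect of adding both given beside the counts. Of the muscle fiber markers, Acta1, Ckm, Myh4 and 9 others were present in all 4 groups, as the labelled tissue requires. Of the heart markers, Nppa, Nppb and Myl7 were at or near 0 in every group, and the others were not. In normalized CPM, the reads of a gene relative to library size, the group means of Tnni3 were 0.273 to 0.679 and those of Myh6 0.985 to 3.33. Those of Myl4 were 5.36 in WT, 11.6 in WT + TAM, 68.7 in Mtm1 KO and 47.2 in Mtm1 KO + TAM.

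All 10 genes are protein coding and lie on 8 chromosomes in GRCm38 (GENCODE vM21 annotation). Klhl40 (ENSMUSG00000074001) is at chr9:121777607-121783818 on the plus strand, and 540 of its 2501 exon bases overlap the antisense gene Gm47108. Klhl38 (ENSMUSG00000022357) is at chr15:58314573-58324169 on the minus strand, and 1446 of its 2212 exon bases overlap the antisense gene Gm15943. Whether counting used strand is not given in the sources used here, so reads of these genes and of their antisense partners cannot be told apart. Klhl41 (ENSMUSG00000075307) is at chr2:69670120-69684230, Klhl31 (ENSMUSG00000044938) at chr9:77636500-77660127, Klhl30 (ENSMUSG00000026308) at chr1:91351016-91362416 and Lmod2 (ENSMUSG00000029683) at chr6:24597762-24605414, all on the plus strand. Klhl33 (ENSMUSG00000090799) is at chr14:50888582-50897507 and Lmod3 (ENSMUSG00000044086) at chr6:97238534-97252759, both on the minus strand. Tmod4 (ENSMUSG00000005628) is at chr3:95124476-95129209 and Klhl34 (ENSMUSG00000047485), which has 1 exon, at chrX:157818435-157820369, both on the plus strand. Of the stretches of 50 bases in their transcripts, Klhl41 shares 4.68% and Klhl33 1.11% with other genes, and the remaining genes without an antisense partner share 0%.

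RefSeq promoter windows (GRCm38.p6, 250 bases before to 50 after the RefSeq start of the gene) were at hand for Klhl31, Klhl33, Klhl34, Klhl40, Klhl41, Lmod2 and Tmod4. The MEF2 site and the CArG box, the binding motifs of the muscle transcription factors MEF2 and SRF, were searched on both strands with CANNTG, the core of the E-box that MyoD family factors bind. Klhl41 held a MEF2 site at position -63 from the start and the printed window of Klhl33 held one at -50, while the window at a second RefSeq start of Klhl33, at chr14:50895303-50895602, held none. The motif was found in 3.19% of 32851 windows of the same length. None of the windows of the 7 genes held a CArG box, which 1.63% of all windows held, and CANNTG was in 6 of the 7 genes and in 72.3% of all windows. The RefSeq start of Klhl31 lies downstream of its GENCODE start, so most of its window, the one without any of the motifs, is inside the GENCODE gene and few of its bases come before that start. The windows of the 2 genes that were lower in Mtm1 KO (Klhl31, Klhl33) and of 3 whose knockout libraries all lay above those of WT (Klhl40, Klhl41, Lmod2) are printed 5′ to 3′, with the MEF2 site in capitals where there is one and CANNTG in capitals elsewhere.
Klhl31 promoter, chr9:77636482-77636781, plus strand: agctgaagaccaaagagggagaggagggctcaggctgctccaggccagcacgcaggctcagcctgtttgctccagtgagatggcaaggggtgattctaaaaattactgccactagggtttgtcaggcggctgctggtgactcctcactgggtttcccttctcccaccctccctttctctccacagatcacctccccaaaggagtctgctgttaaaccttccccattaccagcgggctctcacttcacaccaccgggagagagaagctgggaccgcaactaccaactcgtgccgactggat
Klhl33 promoter, chr14:50897434-50897733, minus strand: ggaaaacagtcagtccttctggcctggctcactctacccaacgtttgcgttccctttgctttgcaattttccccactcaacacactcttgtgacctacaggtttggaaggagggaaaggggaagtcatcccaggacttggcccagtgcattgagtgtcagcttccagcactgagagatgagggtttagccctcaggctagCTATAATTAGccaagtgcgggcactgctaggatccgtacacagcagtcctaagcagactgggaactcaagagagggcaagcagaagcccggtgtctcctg
Klhl40 promoter, chr9:121777357-121777656, plus strand: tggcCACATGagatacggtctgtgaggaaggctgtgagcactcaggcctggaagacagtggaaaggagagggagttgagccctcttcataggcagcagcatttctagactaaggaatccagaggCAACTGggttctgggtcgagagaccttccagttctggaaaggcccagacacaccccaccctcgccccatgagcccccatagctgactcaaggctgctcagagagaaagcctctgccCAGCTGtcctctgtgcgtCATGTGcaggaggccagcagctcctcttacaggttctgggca
Klhl41 promoter, chr2:69669870-69670169, plus strand: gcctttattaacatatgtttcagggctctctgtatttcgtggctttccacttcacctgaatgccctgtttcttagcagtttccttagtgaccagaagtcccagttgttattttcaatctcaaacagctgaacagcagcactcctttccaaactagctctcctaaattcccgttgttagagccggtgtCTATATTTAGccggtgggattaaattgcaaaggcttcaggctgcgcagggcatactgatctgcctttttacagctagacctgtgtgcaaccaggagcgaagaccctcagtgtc
Lmod2 promoter, chr6:24597521-24597820, plus strand: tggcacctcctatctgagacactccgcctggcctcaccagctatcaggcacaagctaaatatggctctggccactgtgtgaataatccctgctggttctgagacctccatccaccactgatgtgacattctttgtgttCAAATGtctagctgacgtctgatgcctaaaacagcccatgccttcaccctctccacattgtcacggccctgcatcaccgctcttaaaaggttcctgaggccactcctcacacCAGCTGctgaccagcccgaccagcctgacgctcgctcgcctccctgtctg

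Among themselves the genes spanned a wide range of levels. In RPKM, which is scaled by gene length and so can be set side by side between genes, Tmod4 stood first in WT at 249 ± 34.8 (SD, n = 3), followed by Klhl41 at 204 ± 16.2 and Klhl31 at 107 ± 6.07. Lmod3 (73.5 ± 14.3), Klhl40 (64.2 ± 6.08), Klhl33 (45.5 ± 0.437), Klhl30 (39.5 ± 2.66) and Lmod2 (34.8 ± 22.9) came next. Klhl34 (3.89 ± 2.95) and Klhl38 (3.17 ± 0.904) were the lowest. The ranges of Tmod4 and Klhl41 overlapped, as did those of Lmod3 and Klhl40, of Klhl30 and Lmod2, and of Klhl34 and Klhl38; the other neighbours in the order did not. Among the 10585 genes with a mean of at least 1 RPKM in WT, Tmod4 had rank 169, Klhl41 rank 206 and Klhl38 rank 6940. The RPKM of Klhl33 rests on a gene length shorter than its 6300 exon bases in GENCODE vM21. In WT replicate 2, Klhl33 had 2087 counts and 46.0 RPKM, while Klhl31, with 6494 exon bases, had 18419 counts and 100 RPKM. The place of Klhl33 in the order of each group depends on that length.

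In Mtm1 KO the order changed. Klhl41 stood first at 304 ± 19.0 RPKM (SD, n = 3), ahead of Tmod4 at 175 ± 17.4, and next came Klhl40 at 128 ± 22.6, Lmod3 at 118 ± 20.3 and Lmod2 at 113 ± 25.4, each overlapping with its neighbour. Klhl31 had moved from the third to the seventh place at 56.6 ± 5.77, beside Klhl30 at 60.7 ± 4.95, and Klhl33 followed at 19.7 ± 3.25. In Mtm1 KO + TAM Klhl41 was again first at 383 ± 77.8 (SD, n = 4), and Lmod2 was at 185 ± 49.3 with a range overlapping that of Tmod4 at 188 ± 12.6. In WT + TAM, Klhl41 at 218 ± 13 and Tmod4 at 214 ± 7.19 overlapped in the first places, and Klhl38 at 6.37 ± 1.87 stood above Klhl34 at 3.53 ± 1.19 with overlapping ranges. RPKM here is scaled to the total count alone, and by this scale the median gene tested was 0.33 (log2) higher in Mtm1 KO than in WT, 0.27 higher in Mtm1 KO + TAM than in WT + TAM and 0.28 higher in Mtm1 KO + TAM than in WT. Fold changes and normalized CPM, the reads of a gene relative to library size, in what follows are scaled by TMM, which removes that shift.

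**Figure D1:**
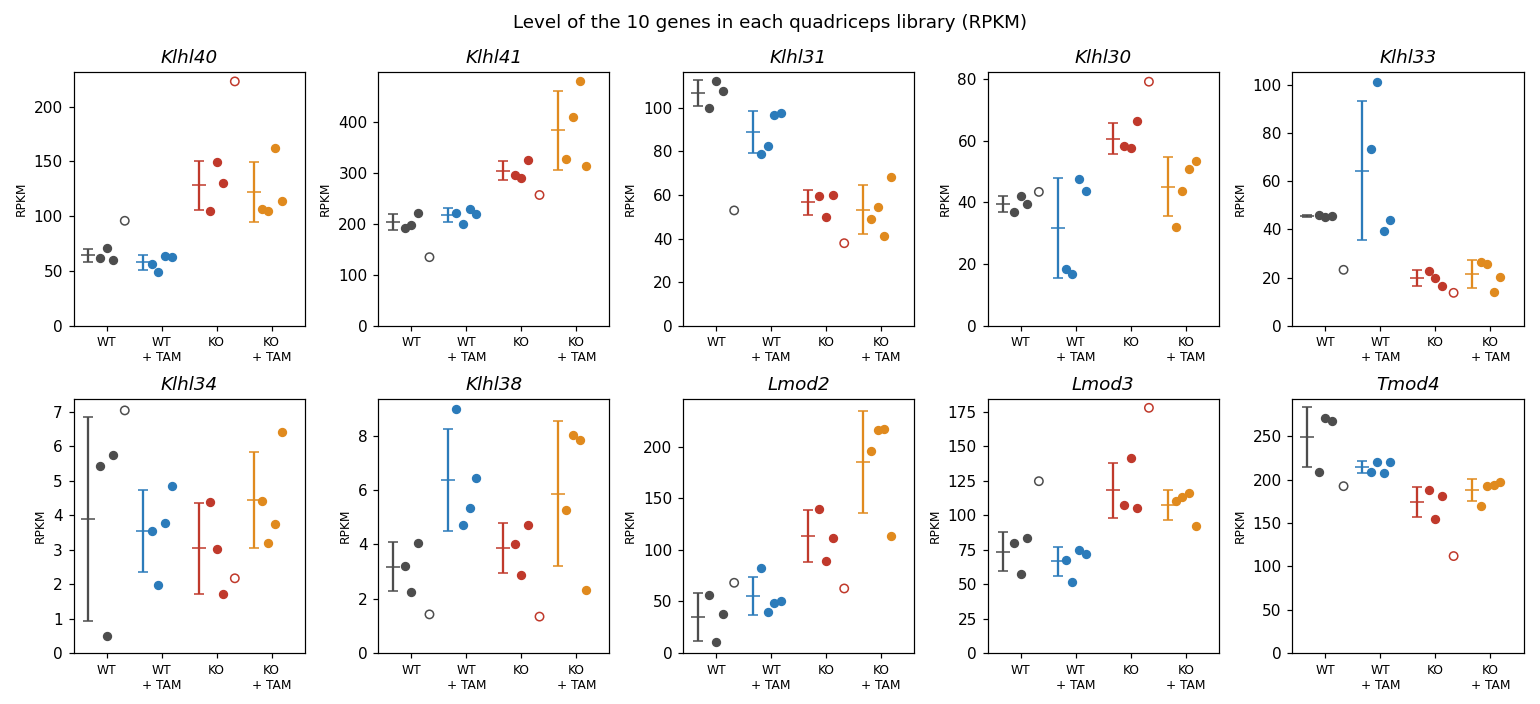
RPKM (y axis, from 0) of each gene in each library, by group (x axis): filled points are the 14 libraries of the main set, open points the library labelled WT replicate 1 and Mtm1 KO replicate 12, and bars the mean ± SD of the filled points. The filled points of Klhl31 and Klhl33 lie lower in both Mtm1 KO groups than in WT and WT + TAM, and those of Klhl40, Klhl41, Lmod2 and Lmod3 lie higher. The open point of WT lies outside the filled WT points for every gene. It is below them for Klhl31 (52.9), Klhl33 (23.2), Klhl41 (135), Tmod4 (192) and Klhl38 (1.42). It is above them for Klhl40 (95.8), Lmod3 (125), Lmod2 (68.1), Klhl30 (43.4) and Klhl34 (7.04).

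The comparison of Mtm1 KO with WT asks how these genes stand in untreated diseased muscle. Klhl31 and Klhl33 fell, to 0.427 and 0.348 of their WT level, and no gene of the 10 rose past the threshold. At an adjusted p of at most 0.01 in edgeR's quasi-likelihood test, 2 of the 10 genes were called, beside 3.6% of all 14740 genes tested. At 0.05 the count was 4, with Klhl40 higher and Tmod4 lower, beside 12.8% of all genes. The normalized CPM of the groups did not overlap for 7 of the 10, beside 36.4% of all genes. All 10 passed the filter on low counts in this comparison and in each of the others. Their median log2 difference was 0.13 and the median of its size was 0.66, beside 0.02 and 0.31 over all genes tested. In whole muscle, fewer cells of a type and less RNA per cell cannot be told apart.

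Klhl31, a muscle kelch protein known to bring filamin-C to cullin-3, had 680, 850 and 752 CPM in WT replicates 2 to 4 and 331, 276 and 351 CPM in Mtm1 KO replicates 9 to 11. The highest knockout library lay below the lowest WT library. Its log2 fold change was -1.23 (SE 0.15, adjusted p = 0.00202, edgeR). Klhl33, a less studied kelch gene, had 77.1, 84.4 and 78.1 CPM in WT and 31.3, 27.2 and 23.5 CPM in Mtm1 KO. The WT libraries were close together and every knockout library was well below them, with a log2 fold change of -1.52 (SE 0.14, adjusted p = 6.02e-04, edgeR).

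Klhl40 had 158, 204 and 158 CPM in WT and 220, 313 and 288 CPM in Mtm1 KO. All 3 knockout libraries were above all 3 WT libraries, and the log2 difference of 0.68 (SE 0.17) had an adjusted p of 0.0330 in edgeR, short of the threshold. Klhl41 had 507 to 604 CPM in WT and 625 to 739 CPM in Mtm1 KO, a log2 difference of 0.27 (95% interval -0.05 to 0.58, adjusted p = 0.233, edgeR). The groups of Klhl41 did not overlap, but the interval of its difference included 0. Klhl30 had 119 to 152 CPM in WT and 151 to 184 CPM in Mtm1 KO, with overlapping groups and an adjusted p of 0.182 in edgeR.

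Of the leiomodins, Lmod2 had 115, 24.0 and 80.4 CPM in WT and 235, 149 and 198 CPM in Mtm1 KO. WT replicate 3 was far below the other WT libraries, and the log2 difference of 1.43 carried an SE of 0.45 and an adjusted p of 0.0695 (edgeR). Lmod3 had 149 to 202 CPM in WT and 206 to 270 CPM in Mtm1 KO, without overlap, and a log2 difference of 0.38 (SE 0.16, adjusted p = 0.157, edgeR). Tmod4 had 376, 543 and 495 CPM in WT and 276, 226 and 279 CPM in Mtm1 KO. Every knockout library of Tmod4 was below every WT library, with a log2 difference of -0.83 (SE 0.17, adjusted p = 0.0154, edgeR). Thus Tmod4 had a log2 difference of opposite sign to those of Lmod2 and Lmod3, none of them past 0.01.

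The low genes Klhl34 and Klhl38 had overlapping groups. Klhl34 had 297, 26 and 307 counts in WT replicates 2 to 4 and 93 to 221 in Mtm1 KO, and its log2 difference of -0.64 ran from -2.14 to 0.85 (95% interval). Klhl38 had 5.80 to 9.64 CPM in WT and 5.44 to 9.33 CPM in Mtm1 KO. A difference in either was not detectable with this spread and these numbers of libraries.

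Adding the library labelled WT replicate 1 and Mtm1 KO replicate 12 left 1 gene called, Klhl33, beside 1.44% of all genes, and Klhl31 at an adjusted p of 0.0183 (edgeR). Without WT replicate 4 the count was also 1, beside 1.28% of all genes, with Klhl31 at an adjusted p of 0.0101, just past the threshold. With DESeq2 the count was 4, since Klhl40 and Tmod4 passed as well, beside 11.4% of all genes.

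Summed markers of fibers and other cells differed between the genotypes. The sum over 12 muscle fiber markers was 156904 to 201686 CPM in WT and 93558 to 108065 CPM in Mtm1 KO. Of the 12, 8 had a negative log2 difference, while Mb was at 0.62 and the myosins Myh1, Myh2 and Myh7 were at 0.97, 1.21 and 1.47. These 4 had SEs of 0.59, 0.44, 1.02 and 1.05 and adjusted p-values of 0.525, 0.173, 0.467 and 0.384 (edgeR). The sum over 6 of 7 satellite cell and regenerating fiber markers was 60.8 to 72.7 CPM in WT and 190 to 251 CPM in Mtm1 KO, where 4 of the 6, among them Myog and embryonic myosin Myh3, had a positive log2 difference. Pax7, the defining marker of satellite cells, was at -1.39 (adjusted p = 0.0161, edgeR) and Myf5 at -0.23. The sum over 7 of 8 immune cell markers was 164 to 197 CPM in WT and 258 to 397 CPM in Mtm1 KO. None of the markers summed in these 3 lists was at 0 in a library of the main set. The smooth muscle markers summed to 282 to 302 CPM in WT and 200 to 233 CPM in Mtm1 KO, and the ranges of the endothelial, fibroblast, fat and red blood cell lists overlapped. The part of these differences in markers in the differences of the kelch and leiomodin genes was not tested. The heart list summed to 4.66 to 9.25 CPM in WT and 64.1 to 77.4 CPM in Mtm1 KO. Myl4, which developing skeletal muscle also makes, accounted for 62.7 to 75.6 CPM of this in Mtm1 KO, while Myl7 was at 0 in both groups.

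The same genotype comparison within tamoxifen-treated mice used 8 other libraries and shared none with the untreated one. Klhl31, Klhl33 and Tmod4 were lower in Mtm1 KO + TAM than in WT + TAM, and Klhl40 and Lmod2 were higher. These 5 of the 10 genes were called at 0.01 (edgeR), beside 6.72% of all 14563 genes tested. At 0.05 Klhl41 made the count 6, beside 17% of all genes, and the groups did not overlap for 7 of the 10, beside 22.5% of all genes. The 7 were the genes whose groups did not overlap in untreated mice, each in the same direction. The median log2 difference over the 10 was 0.14 and the median of its size 0.50, beside -0.01 and 0.28 over all genes.

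Klhl31 had 571, 576, 686 and 693 CPM in WT + TAM and 307, 314, 224 and 410 CPM in Mtm1 KO + TAM. Mtm1 KO + TAM replicate 16 was the highest of the knockouts and still below every WT + TAM library, and the log2 fold change was -1.01 (SE 0.17, adjusted p = 0.00303, edgeR). Klhl33 had 131, 175, 68.9 and 77.1 CPM in WT + TAM and 41.2, 36.2, 18.6 and 30.3 CPM in Mtm1 KO + TAM. The treated WT libraries fell into a high and a low pair, replicates 5 and 6 against 7 and 8, and the knockouts lay below both. Its log2 fold change was -1.84 (SE 0.31, adjusted p = 0.00308, edgeR).

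Klhl40 had 155, 129, 170 and 170 CPM in WT + TAM and 253, 228, 334 and 259 CPM in Mtm1 KO + TAM. Replicate 15 stood above the other knockouts, and all 4 were above all WT + TAM libraries, for a log2 fold change of 0.78 (SE 0.14, adjusted p = 0.00417, edgeR). Klhl41, its close relative, had 544 to 636 CPM in WT + TAM and 737 to 1019 CPM in Mtm1 KO + TAM, a log2 difference of 0.53 (SE 0.13, adjusted p = 0.0180, edgeR).

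Lmod2 had 181, 85.2, 103 and 108 CPM in WT + TAM and 372, 376, 358 and 206 CPM in Mtm1 KO + TAM. Even the lowest knockout library, replicate 16, was above the highest WT + TAM library. The fold was 2.75 (log2 1.46, SE 0.25, adjusted p = 0.00315, edgeR), the largest rise among the 10 genes. Lmod3 had 125 to 184 CPM in WT + TAM and 191 to 239 CPM in Mtm1 KO + TAM, a log2 difference of 0.41 (SE 0.14, adjusted p = 0.0592, edgeR). Tmod4 had 400, 408, 391 and 415 CPM in WT + TAM and 281, 292, 278 and 313 CPM in Mtm1 KO + TAM, with both groups tight and apart. Its log2 fold change of -0.47 (SE 0.10, adjusted p = 0.00824, edgeR) became -0.19 (adjusted p = 0.198) when counts were scaled by library size alone.

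Klhl30, Klhl34 and Klhl38 had overlapping groups and adjusted p-values of 0.666, 0.907 and 0.404 (edgeR). The number called depended on single libraries in this comparison. It was 1 without WT + TAM replicate 7, without WT + TAM replicate 8 or without Mtm1 KO + TAM replicate 15, 2 without Mtm1 KO + TAM replicate 14 and 3 without Mtm1 KO + TAM replicate 13, and 3 without both WT + TAM replicates 5 and 6. The share called of all genes was lower than 6.72% in these fits too, at 3.73%, 3.62%, 2.88%, 3.64%, 4.21% and 4.39% in the same order. Over the 8 fits that each left out 1 library, the adjusted p of Klhl31 stayed between 0.00154 and 0.0105, that of Klhl33 between 0.00286 and 0.01002 and that of Lmod2 between 9.84e-04 and 0.0115. The sum of the muscle fiber markers was 170341 to 178429 CPM in WT + TAM and 87333 to 128491 CPM in Mtm1 KO + TAM, and that of the satellite cell and regenerating fiber markers was 58.5 to 88.8 and 146 to 255 CPM. In these mice Pax7 was at -1.26 (adjusted p = 0.0175, edgeR) and Myf5 at -0.39 on the log2 scale. The same 4 fiber markers had positive differences, from 0.78 for Myh1 to 1.82 for Myh7. Their adjusted p-values in edgeR were 0.0631 for Mb, 0.0429 for Myh1, 0.0200 for Myh2 and 0.117 for Myh7. The immune cell markers summed to 70.6 to 211 and 235 to 346 CPM, and the part of the markers in these differences was not tested.

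**Figure D2:**
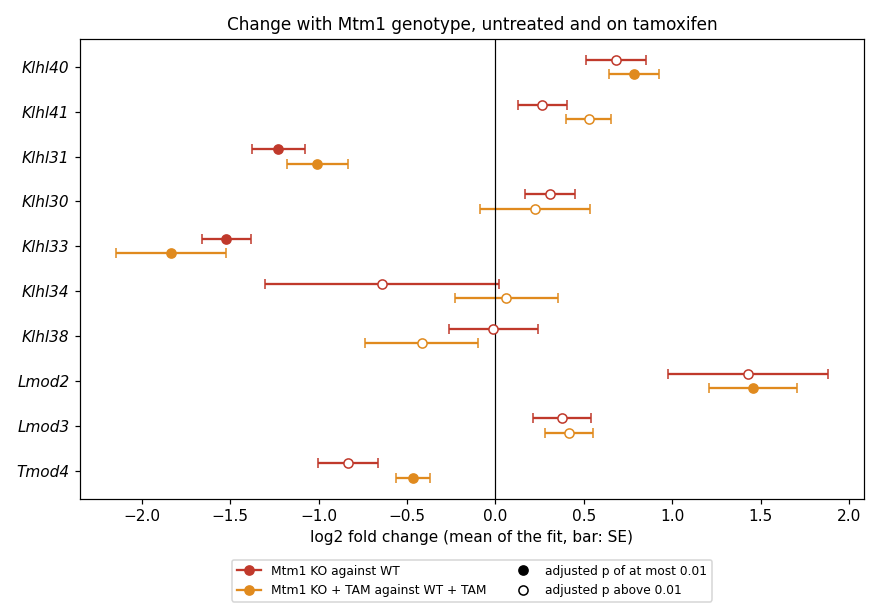
Log2 fold change with its SE (x axis) for each gene (y axis), for Mtm1 KO against WT and for Mtm1 KO + TAM against WT + TAM. Filled points passed an adjusted p of 0.01, and the points of Klhl31, Klhl33 and Tmod4 lie left of 0 and those of Klhl40, Klhl41, Lmod2 and Lmod3 right of 0 in both comparisons.

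As a share of the RPKM of both leiomodins, Lmod2 took 29.3 ± 13% in WT (SD, n = 3), 44.7 ± 7.08% in WT + TAM (n = 4), 48.9 ± 9.25% in Mtm1 KO (n = 3) and 62.5 ± 4.94% in Mtm1 KO + TAM (n = 4). The single libraries ran from 15.5% in WT replicate 3 to 65.7% in Mtm1 KO + TAM replicate 14. The lowest Mtm1 KO + TAM library, at 55.2%, lay just above the highest WT + TAM library, at 54.9%, while WT and Mtm1 KO overlapped, at up to 41.3% and down to 38.6%. Klhl31, which had 1.67 ± 0.116 times the RPKM of Klhl40 in WT and 1.53 ± 0.119 times in WT + TAM, had 0.455 ± 0.118 times in Mtm1 KO and 0.458 ± 0.147 times in Mtm1 KO + TAM. The order of the pair was thus reversed in every knockout library of the main set. Summed over the 10 genes, RPKM was 824 ± 44.3 in WT, 806 ± 26.3 in WT + TAM, 982 ± 23.0 in Mtm1 KO and 1116 ± 140 in Mtm1 KO + TAM, on the scale that carries the shift of the median gene given above.

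**Figure D3:**
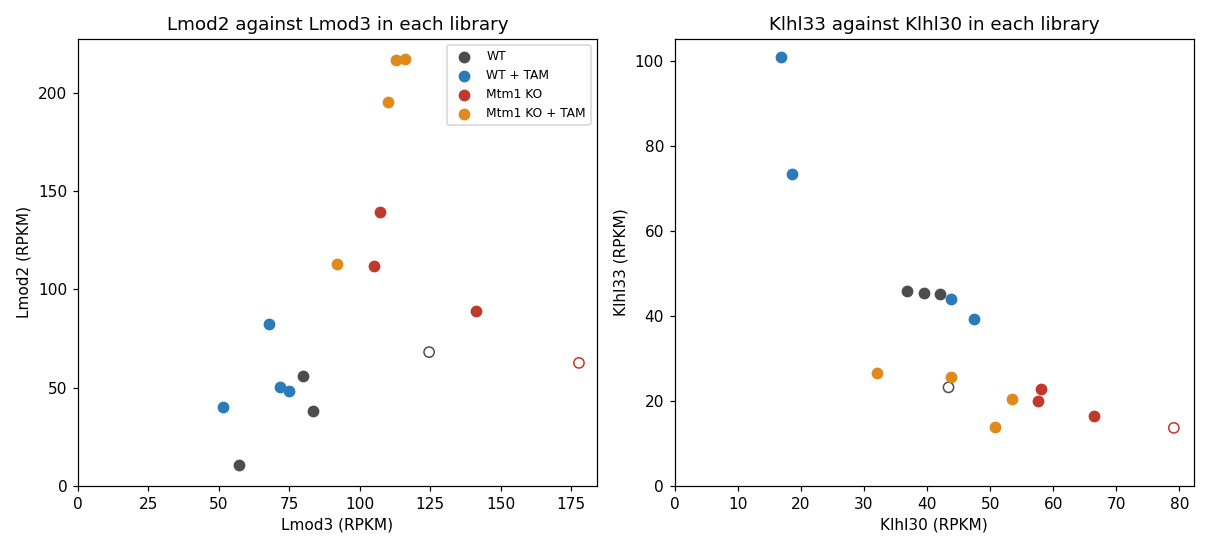
RPKM of Lmod2 against Lmod3 (left) and of Klhl33 against Klhl30 (right), 1 point a library, both axes from 0, open points for the libraries outside the main set. Both leiomodins are higher in most knockout libraries, and WT + TAM falls into a pair with Klhl33 at 73.4 and 100.9 and Klhl30 at 18.5 and 16.8 and a pair with Klhl33 at 39.3 and 43.9 and Klhl30 at 47.4 and 43.8.

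The comparison of Mtm1 KO + TAM with Mtm1 KO asks whether tamoxifen moved these genes in diseased muscle. None of the 10 was called in edgeR at 0.01 or at 0.05, where 0% of all 15062 genes tested were called at 0.01, and DESeq2 called none of the 10 and 72 genes in all. An unadjusted p below 0.05 was found for 3 of the 10 and for 1137 genes in all. Lmod2 was the nearest, at 149 to 235 CPM in Mtm1 KO and 206 to 376 CPM in Mtm1 KO + TAM, with a log2 difference of 0.75 (95% interval 0.25 to 1.24, adjusted p = 0.389, edgeR). The other two were Klhl41, at 0.37 (95% interval 0.02 to 0.71), and Klhl30, at -0.39 (95% interval -0.75 to -0.04), with adjusted p-values of 0.614 and 0.583. The groups of all 10 genes overlapped, and the share of all genes with overlapping groups was not computed for this comparison. For Klhl31 the difference was -0.04 (95% interval -0.46 to 0.38) and for Klhl33 it was 0.19 (95% interval -0.32 to 0.70), and neither interval held a rise as large as the fall from WT to Mtm1 KO (log2 -1.23 and -1.52), which rests on the same Mtm1 KO libraries. The difference of Tmod4 was 0.15 (95% interval -0.13 to 0.43).

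In WT mice, tamoxifen likewise gave no call among the 10 genes in edgeR, beside 0.131% of all 14544 genes tested. Klhl38 was the nearest, with 201, 137 and 247 counts in WT replicates 2 to 4 and 514, 280, 304 and 371 counts in WT + TAM. All WT + TAM libraries were above all WT libraries, and the fold was 2.03. The share of all genes with groups that did not overlap was not computed for this comparison. The log2 difference of 1.02 (SE 0.26) had an unadjusted p of 0.00325 and an adjusted p of 0.174 in edgeR. It was the sole one of the 10 with an unadjusted p below 0.05, beside 10.7% of all genes. DESeq2 called Klhl38 and no other of the 10, at an adjusted p of 0.00871, beside 1.47% of all genes. Reads of Klhl38 cannot be told apart from those of its antisense partner Gm15943. In Mtm1 KO the difference of Klhl38 with tamoxifen was 0.62 (95% interval -0.13 to 1.38), and its 4 treated knockout libraries spread from 146 to 523 counts.

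Klhl30 and Klhl33 differed between pairs of WT + TAM libraries more than between WT and WT + TAM. In replicates 5 and 6, Klhl30 was at 63.9 and 56.0 CPM and Klhl33 at 131 and 175 CPM, whereas in replicates 7 and 8 Klhl30 was at 161 and 148 CPM and Klhl33 at 68.9 and 77.1 CPM. WT replicates 2 to 4 were at 119 to 152 CPM for Klhl30 and 77.1 to 84.4 CPM for Klhl33, near the latter pair. The labels give no difference between the pairs of WT + TAM libraries. The fat cell markers summed to 1810 and 1335 CPM in replicates 5 and 6 and to 488 and 499 CPM in replicates 7 and 8. The other lists that set the pairs apart were lower in replicates 5 and 6. The fibroblast markers summed to 4564 and 3735 against 6170 and 6063 CPM and the endothelial markers to 222 and 237 against 286 and 287 CPM. The smooth muscle markers summed to 257 and 248 against 277 and 282 CPM. For satellite cells and regenerating fibers the sums were 65.6 and 58.5 against 86.7 and 88.8 CPM, and for red blood cells 152 and 66.7 against 158 and 156 CPM. The pairs overlapped for the muscle fiber, immune cell and heart lists. The part of the markers in the difference between the pairs was not tested.

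Whether tamoxifen acted differently in knockout and WT muscle was asked with an interaction term over all 14 libraries. It was called for none of the 10 genes and for 0% of all 15556 genes in edgeR, and DESeq2 called none of the 10 and 12 genes in all. An unadjusted p below 0.05 was found for 664 genes in all. The interaction ran from -0.38 for Klhl38 to 0.73 for Klhl34, with an unadjusted p below 0.05 for Tmod4 alone, at 0.39 (95% interval 0.01 to 0.77, adjusted p = 0.9998). For Lmod2 the interval ran from -1.10 to 1.21 and for Klhl40 from -0.36 to 0.61.

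**Figure D4:**
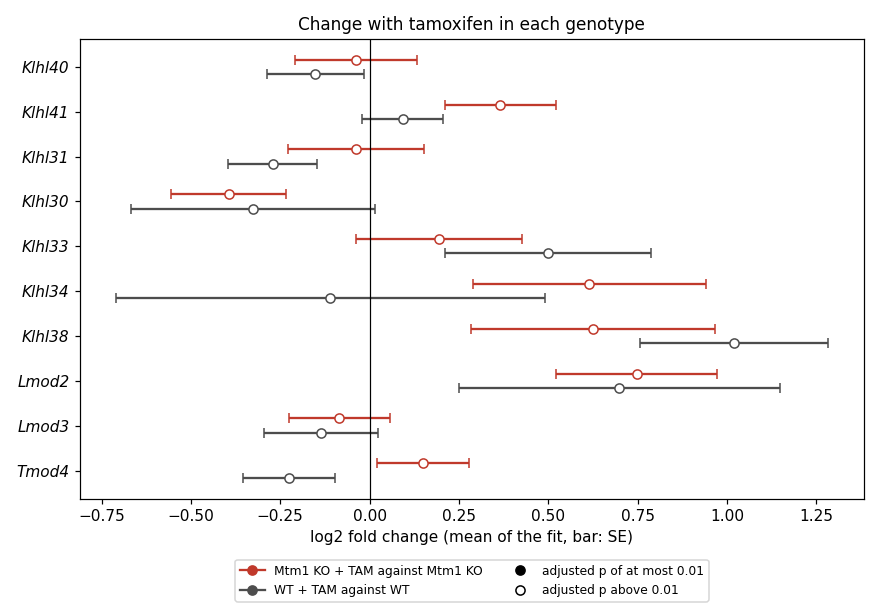
Log2 fold change with its SE (x axis) for each gene (y axis), for tamoxifen in Mtm1 KO and in WT. All points are open since none passed an adjusted p of 0.01. Klhl33, Klhl38, Klhl41 and Lmod2 lie right of 0 in both, and Klhl30, Klhl31, Klhl40 and Lmod3 lie left of 0 in both. Lmod2 is at 0.75 (SE 0.23, adjusted p = 0.389, edgeR) in Mtm1 KO and at 0.70 (SE 0.45, adjusted p = 0.630, edgeR) in WT. With single libraries left out, the difference of Lmod2 in WT ran from 0.28 to 1.20.

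Mtm1 KO + TAM was also set against untreated WT, a comparison that shares its WT libraries with the first one and its knockout libraries with the treated one. Klhl31 (-1.28), Klhl33 (-1.34) and Tmod4 (-0.69) were lower and Lmod2 was higher, 4 of the 10 genes beside 7.7% of all 14942 genes tested (edgeR, adjusted p of 0.00150, 0.00241, 0.00750 and 0.00680). The fold of Lmod2 was 4.48 (log2 2.16, SE 0.43), against a WT group with 115, 24.0 and 80.4 CPM in replicates 2 to 4. With single libraries left out its log2 fold change ran from 1.75 to 2.65, with adjusted p-values of 0.00275 to 0.0242 (edgeR). Klhl40 at 0.63 and Klhl41 at 0.62 had adjusted p-values of 0.0194 and 0.0166. With the library labelled WT replicate 1 added, none of the 10 passed in edgeR, beside 2.03% of all genes, and the adjusted p of Lmod2 was 0.0501. Without WT replicate 4, or without any 1 of Mtm1 KO + TAM replicates 13, 14 and 15, the count was 2, beside 3.46% to 4.94% of all genes.

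The genes around the kelch proteins and leiomodins were read as lists, by their counts alone. Over all genes tested, 30.1% had an unadjusted p below 0.05 and DESeq2 called 11.4% in the untreated comparison, and 32.3% and 13.7% in the treated one. Of 43 other BTB-kelch genes 38 were tested, and in Mtm1 KO against WT 1 was called, lower, while 28 had a negative and 10 a positive difference (median -0.28). The called gene was Klhl23, at -1.22 (SE 0.19, adjusted p = 0.00534, edgeR). In the treated comparison 3 were called, all lower: Klhl23 at -0.81, Klhl21, which takes part in cytokinesis with cullin-3, at -0.65, and Klhl8 at -0.67. An unadjusted p below 0.05 was found for 13 of the 38 in the untreated and 17 in the treated comparison, and DESeq2 called 7 in each. The 9 tested genes of the cullin-3 ligase and neddylation gave no call in either comparison in edgeR (medians 0.01 and 0.11, unadjusted p below 0.05 for 4 and 3, and 2 called by DESeq2 in each), and Cul3 itself was at -0.71 and -0.54 with adjusted p-values of 0.0435 and 0.0333.

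Of 10 other nemaline myopathy genes, none was called in either comparison by edgeR, and 7 had a negative difference in each (medians -0.33 and -0.25). An unadjusted p below 0.05 was found for 4 and 7 of them, and DESeq2 called 4 in each. Nebulin (Neb), the giant thin filament ruler, was at -0.83 and -0.61 with adjusted p-values of 0.0281 and 0.0375, and the kelch gene Kbtbd13 was at -1.23 and -0.68 with 0.0236 and 0.111. Slow troponin T (Tnnt1) had the largest difference of the list, in the other direction, at 1.87 and 2.52 with adjusted p-values of 0.179 and 0.0118. Of the other 4 tropomodulin family genes, Tmod1, Tmod2, Tmod3 and Lmod1, none was called by edgeR or DESeq2 in either comparison (medians 0.04 and -0.14, unadjusted p below 0.05 for 1 and 2). Of 6 partners and substrates, 4 had a negative difference in Mtm1 KO against WT and 5 in the treated comparison (medians -0.69 and -0.57). An unadjusted p below 0.05 was found for 5 in each, and DESeq2 called 5 in each. The 1 gene called by edgeR was filamin-C (Flnc), the actin crosslinker that KLHL31 acts on, against the direction of most of the list. It rose by 0.81 (SE 0.14, adjusted p = 0.00862, edgeR) in Mtm1 KO against WT. In the treated comparison Flnc was at 0.83 with an adjusted p of 0.0175.

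Of 6 tested genes for SRF, MEF2 and SRF cofactors, Mkl1, a cofactor that carries the actin signal to SRF, fell by 1.06 (SE 0.17, adjusted p = 0.00555, edgeR) in Mtm1 KO against WT, and in the treated comparison it was at -0.71 with an adjusted p of 0.0478. There Srf fell by 0.77 (SE 0.15, adjusted p = 0.00506) and Mef2c rose by 0.60 (SE 0.11, adjusted p = 0.00412). In untreated mice Srf was at -0.56 and Mef2c at 0.63, with adjusted p-values of 0.0348 and 0.0243. Of the 6, 4 had an unadjusted p below 0.05 in each comparison, and DESeq2 called 3 in the untreated and 2 in the treated one.

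By Pearson correlation of log2 CPM over the 14 libraries, the genes most like each of the 10 were, for Klhl31, Lrtm1 (r = 0.986), C130080G10Rik (0.983) and A530058N18Rik (0.981), and for Klhl33, A930018M24Rik (0.969), Smco1 (0.964) and Lonp1 (0.963). For Klhl40 they were Lgmn (0.969), Serpinb1a (0.961) and Soat1 (0.960), for Klhl41 Ankrd10 (0.944), Psma5 (0.936) and Rpl39 (0.932), and for Klhl30 Sh3pxd2b (0.923), Dna2 (0.922) and Spon2 (0.918). For Lmod2 they were Phlda3 (0.934), Myoz2 (0.918) and Arid5a (0.916), for Lmod3 Cyba (0.965) and Plscr3 (0.955), and for Tmod4 Acyp2 (0.962), Atp8a1 (0.958) and Slc16a3 (0.955). For the low genes they were Ldhb (0.925), Slc16a1 (0.897) and Slc25a34 (0.859) for Klhl34, and Gm17130 (0.896), Ciao1 (0.880) and Clcn2 (0.863) for Klhl38. The 14 libraries fall into 2 genotypes, and these values over all of them are a description with no test.

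Of the 45 pairs among the 10 genes, 24 had an r of the same sign over the 7 libraries of WT mice, treated or not, and over the 7 libraries of knockout mice. In 6 of these pairs r was beyond 0.5 in size in both sets. Each set holds treated and untreated mice, so r also carries any difference with tamoxifen. Klhl38 and Lmod2 varied together in both (r = 0.789 and 0.858, Spearman's rho 0.643 and 0.786), as did Klhl31 and Tmod4 (r = 0.753 and 0.506, rho 0.714 and 0.536). Klhl40 and Klhl33 ran opposite in both (r = -0.686 and -0.781, rho -0.607 and -0.821). The remaining pairs of the 6 were Klhl41 with Klhl38 (r = 0.565 and 0.819), Klhl31 with Klhl38 (-0.724 and -0.527) and Klhl30 with Klhl33 (-0.957 and -0.562). Klhl31 and Klhl33, both lower in Mtm1 KO, had an r of -0.719 in the WT groups, where replicates 5 and 6 of WT + TAM were high for Klhl33, and 0.469 in the knockout groups.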

How the data were processed

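The authors' deposited tables hold 41388 genes in quadriceps RNA of 16 mice, 4 per group of genotype and treatment. Per the authors, reads were aligned to GRCm38 with STAR and counted on genes with HTSeq, and the raw counts are deposited without scaling. The RPKM values were made by the authors from these counts by library size and gene length. The submitters' processing notes name bcl2fastq 2.17, STAR 2.5.0c and Cufflinks 2.2.1. For HTSeq, the version, annotation, counting mode and use of strand were not given in the sources used here. No 2 libraries had identical counts (0 of 120 pairs).

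The 14 libraries of the study were used, without WT replicate 1 and Mtm1 KO replicate 12, which the study left out with no stated reason. The gene members and lists were chosen with earlier results of these data known. Counts were tested in R 4.3.3 with edgeR 4.0.16 (TMM, filterByExpr with a minimum count of 10 and a minimum total of 15, quasi-likelihood test, Benjamini-Hochberg adjustment over all genes tested), on the libraries of the groups compared, and called at an adjusted p of at most 0.01. The interaction was fitted over all 4 groups. Intervals are 95%, from the fitted SE and the t distribution with the degrees of freedom of the test. The alternatives were DESeq2 1.42.0, limma 3.58.1 on log2(RPKM + 0.1) and log2(RPKM + 1), RLE or library size scaling, no filter, 1 fit of the 4 groups, a threshold of 0.05, all 16 libraries, each library left out in turn and, chosen after seeing the data, WT + TAM replicates 5 and 6 left out together. All 10 genes were named, with pathway list genes past the threshold and the 3 genes most like each of the 10 by correlation, of which 1 is not reported here. Libraries are said to be single mice, so p-values measure the spread between these mice. The scripts were tested on simulated counts. Normalized CPM uses TMM factors over all 16 libraries. RPKM depth is that of the counts.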

Additional observations from a re-analysis of the deposited data

Results flagged for a closer look

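In 2 of 20 groups of 4 libraries (the 10 genes in WT + TAM and in Mtm1 KO + TAM), 1 library lay far from the others by Dixon's test, and chance alone gives about 1 in 20. Klhl40 in Mtm1 KO + TAM had a gap of 0.851 of its range, since replicate 15 was at 162 RPKM and the others at 105 to 114. Tmod4 in Mtm1 KO + TAM had a gap of 0.837 of its range, since replicate 13 was at 169 RPKM and the others at 192 to 197. In normalized CPM replicate 13 was not the lowest for Tmod4, at 281 CPM against 278 to 313 CPM.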

How the results depend on the processing

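Klhl31 and Klhl33 were lower in Mtm1 KO under each of 15 alternatives, with log2 fold changes of -1.31 to -0.91 and -1.63 to -1.18, and Klhl33 was called in all 15 and Klhl31 in 12. The number of the 10 genes called in Mtm1 KO against WT, 2, became 4 with DESeq2, with limma on log2(RPKM + 1), at a threshold of 0.05, with library size scaling and with no filter. The share of all genes called, 3.6%, was 11.4%, 5.78%, 12.8%, 7.89% and 4.83% there. The number became 1 with limma on log2(RPKM + 0.1) and with all 16 libraries (2.44% and 1.44% of all genes), and was 1 to 2 with single libraries left out (1.21% to 2.4%). In Mtm1 KO + TAM against WT + TAM the number, 5, became 3 with limma on log2(RPKM + 0.1) and 3 without WT + TAM replicates 5 and 6 (chosen after seeing the data), where Klhl40 and Tmod4 had adjusted p-values of 0.0246 and 0.0315. It was 1 to 4 with single libraries left out. All genes were called at 7.66%, 4.39% and 2.88% to 6.2% there, against 6.72%. In Mtm1 KO + TAM against WT the number, 4, became 1 with limma on log2(RPKM + 0.1) and 0 with the library labelled WT replicate 1 added, and was 2 to 4 with single libraries left out, beside 4.73%, 2.03% and 3.46% to 8.45% of all genes against 7.7%. In WT + TAM against WT DESeq2 called 1, beside 1.47% of all genes. The cause of these changes was not tested.

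Over the 10 genes in all 6 comparisons there were 1040 values under alternatives, of which 61 had another sign, 0 of them for a gene called in that comparison. For the 31 of 60 gene and comparison pairs whose values are given one by one there were 504, of which 11 had another sign, 52 lost and 31 gained a call. In Mtm1 KO against WT, Klhl38 was at 0.29 and Klhl34 at 0.14 with limma on log2(RPKM + 0.1), and Klhl38 at 0.23 on log2(RPKM + 1), at 0.29 with library size scaling and at 0.0017 with no filter. With single libraries left out, Klhl38 ran from -0.21 to 0.19 there, and Klhl34 from -0.18 to 0.25 in Mtm1 KO + TAM against WT + TAM. In the latter, without WT + TAM replicates 5 and 6, Klhl30 was at -0.31 and Klhl34 at -0.22.

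Mean RPKM moved by more than 1 SD on rescaling by TMM factors for Klhl40 (70.6), Klhl41 (223), Klhl31 (117), Klhl30 (43.4) and Klhl33 (49.8) in WT, Klhl41 (239) and Tmod4 (235) in WT + TAM, Klhl41 (264), Klhl31 (49.2), Klhl30 (52.7) and Tmod4 (151) in Mtm1 KO, and Tmod4 (169) in Mtm1 KO + TAM. With all 16 libraries it moved so for Klhl40 (72.1), Klhl41 (187), Klhl31 (93.2) and Klhl33 (39.9) in WT and for Klhl40 (152.0) in Mtm1 KO. No paired analysis was made, because the sample labels give no litter or pair. The paper describes the sequenced mice as littermates, so any likeness within litters is not in the fits or their p-values. Klhl34 and Klhl38 had the lowest counts of the 10, 26 to 523 in the main set.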
